A study of Saccharomyces cerevisiae with 25 samples.

Results

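The iron uptake regulon, 10 genes of iron acquisition, was followed in budding yeast during phosphate starvation. Its members were AFT1, FET3, FTR1, FRE1, FRE6, FIT2, FIT3, ARN1, ARN2 and CCC2. They were taken by name as 10 of the 6648 named rows of the deposited expression table, and all 10 were found there. AFT1, FET3, FTR1 and FIT2 had a value in all 25 libraries, FRE6, FIT3 and CCC2 in 24, ARN2 in 23, FRE1 in 20 and ARN1 in 15. The strain, in the BY4741 background (a haploid laboratory strain of Saccharomyces cerevisiae), carried a yellow fluorescent protein under the PHO84 promoter (pho84pr-YFP) and a DAmP allele of PHM3, an older name of VTC4 (phm3 damp, an allele built to lower the amount of the transcript). Both features were shared by every sample, and a strain without them was not analysed here. Total RNA was sequenced from 1 sample in high-phosphate medium, labelled 0 min, and from 24 samples in no-phosphate medium, taken every 15 min until 360 min after the wash and transfer. The 24 were grouped by time into 4 windows of 6 consecutive samples (15 to 90, 105 to 180, 195 to 270 and 285 to 360 min), which gives n = 6 for each window, while n = 1 at 0 min. Nothing in the labels says that the samples came from separate cultures, so p-values measure only the scatter between consecutive samples.

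Yeast takes up iron by several routes that are controlled together. Reductases at the cell surface, such as Fre1, convert ferric to ferrous iron, which the multicopper oxidase Fet3 and the permease Ftr1 then carry across the membrane as a complex. Fet3 needs copper, which the Golgi ATPase Ccc2 loads into it. Iron bound to siderophores, the iron chelators of microbes, is held in the cell wall by the mannoproteins Fit2 and Fit3 and taken in by transporters such as Arn1 and Arn2, while Fre6 reduces iron stored in the vacuole. The transcription factor Aft1 moves into the nucleus and activates these genes when mitochondrial iron-sulfur clusters run short, so its activity is set by its location and binding more than by its transcript.

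The sequence before each start codon was searched for the sites of these regulators. The genes were named as Aft1 and its known targets, so matches to the Aft1 site describe the group and are no independent evidence. The core Aft1 site TGCACCC, on either strand within 500 bases before the start codon, was found for 8 of the 10 genes and for 2.33% of 6019 genes in all. FIT2 held 4 matches, FTR1, FIT3 and CCC2 held 2, FET3, FRE6, ARN1 and ARN2 held 1, and AFT1 and FRE1 held none. The shorter core CACCC, which lies within TGCACCC, was present before 33.4% of all genes and before each of the 10 except AFT1. FRE1 carried 3 matches to TTTGCTC, the site of the copper-sensing activator Mac1, and FTR1 carried 1, against 8.59% of all genes with at least 1. CACGTG, the site of Pho4, the activator of the phosphate starvation genes, was found before none of the 10 and before 6.21% of all genes. A match describes the letters only. Sites are shown for the uptake complex, for both reductase genes, which differ in which site they carry, for the wall protein genes and for CCC2, each as 41 bases of RefSeq's R64 genome read in the direction of the gene, with 1 Aft1 or, where named, Mac1 match in capitals. The middle sites of FIT2 and FRE1 each begin with a further match, left in lower case.
FET3 (chrXIII:388554-388594, plus strand): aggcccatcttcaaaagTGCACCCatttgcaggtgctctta
FTR1, far site (chrV:462082-462122, minus strand): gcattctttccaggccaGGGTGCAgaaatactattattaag
FTR1, near site (chrV:461892-461932, minus strand): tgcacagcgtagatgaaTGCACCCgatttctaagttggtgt
FTR1, Mac1 (chrV:461798-461838, minus strand): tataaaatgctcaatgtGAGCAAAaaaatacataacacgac
FRE1, Mac1, middle site (chrXII:568281-568321, plus strand): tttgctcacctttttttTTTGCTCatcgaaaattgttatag
FRE1, Mac1, near site (chrXII:568454-568494, plus strand): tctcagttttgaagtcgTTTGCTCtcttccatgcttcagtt
FRE6 (chrXII:39590-39630, minus strand): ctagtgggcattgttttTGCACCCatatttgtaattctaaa
FIT2, middle site (chrXV:1059265-1059305, plus strand): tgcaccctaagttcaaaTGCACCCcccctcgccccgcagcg
FIT2, near site (chrXV:1059383-1059423, plus strand): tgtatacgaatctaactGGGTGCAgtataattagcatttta
FIT3, far site (chrXV:1061317-1061357, minus strand): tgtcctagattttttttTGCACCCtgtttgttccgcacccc
CCC2, near site (chrIV:1005416-1005456, plus strand): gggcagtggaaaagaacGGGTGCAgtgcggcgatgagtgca
The FIT2 and FIT3 sites stand before the neighbouring genes of 1 locus on chromosome XV, which are transcribed towards each other.

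Levels are given as log2 RPM (reads per 1000000 reads). Depth, recovered from the steps between low values, was 4.275 M reads at 0 min, had a median of 1.12 M, and was lowest in the last window, at 0.147 to 0.781 M. The table lists a gene only from 10 reads upwards. The lowest level that can be listed was therefore 1.23 at 0 min and 3.68 to 6.09 in the last window, and a missing value says only that the gene was below it. In 5 libraries (75, 120, 255, 345 and 360 min) the transcript of ADA2, a coactivator subunit, stood apart at 7.83 to 8.92 against 10.46 to 12.02 in the other 20, and what leaving these 5 out does is given with the genes it touches. PHO84, the phosphate transporter, was at 6.93 at 0 min and 8.80 at 15 min, and VTC4 was at 6.40 at 0 min and present in all 25. At 345 min VTC4 stood at 10.36, against 5.87 to 8.06 in the other libraries, so this shallowest library stands apart by VTC4 as well as by ADA2. The genes of mating type a, MFA1, MFA2, STE2 and BAR1, were present in 25 of 25 libraries, and LEU2, HIS3 and MET17 in none. URA3 had a value in 13 (2.52 to 4.71) and STE3, the receptor of the other mating type, in 23 of 25 (4.26 to 5.32).

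Per kilobase of coding length, the uptake complex led the group. FTR1 had a median level of 258 RPM per kb (173 to 407 over the libraries), FET3 149 (100 to 221), FIT2 108 (53 to 234) and FIT3 57.3 (34.6 to 106). AFT1 followed at 23.6 RPM per kb (16 to 42.8) and CCC2 at 14.4 (5.59 to 18.4). The lowest medians were those of FRE6, at 11.1 RPM per kb (5.79 to 41.5), ARN2, at 10.5 (5.63 to 23.7), FRE1, at 10.2 (5.6 to 35.9), and ARN1, at 7.15 (2.55 to 16.3). Neighbours in this order overlapped in range throughout, whereas the ranges of FTR1 and FIT3, or of FET3 and AFT1, did not meet.

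**Figure D1:**
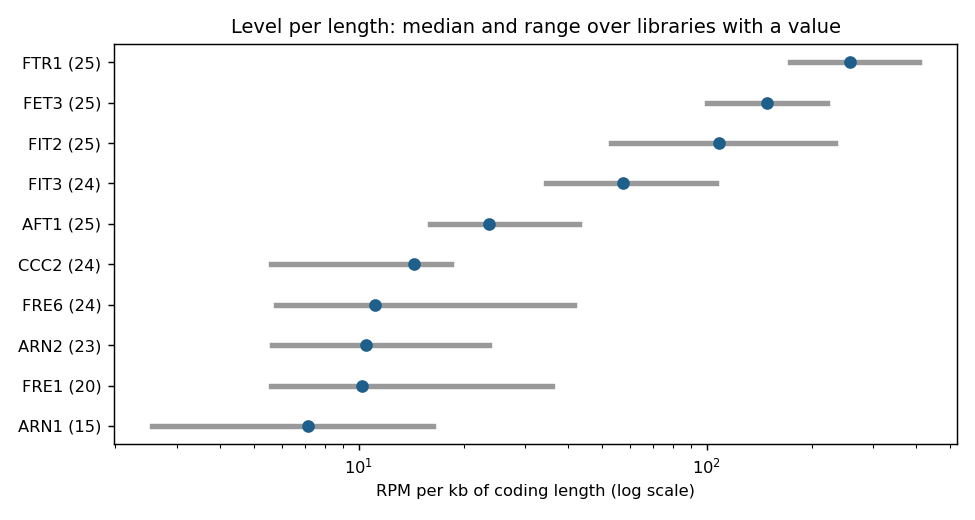
Level of each gene in RPM per kb of coding length, on a log axis; the dot is the median and the bar the range over the libraries with a value, whose number stands beside the name. FTR1 (median 258) and FET3 (149) lead, and ARN1 (7.15) is lowest with a value in 15 libraries.

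The listed levels of the 10 genes took differing courses after phosphate was removed, as a description, since a difference between the genes was not tested. FRE1 stood below its 0 min level in every later library that had a value, and FET3 and FTR1 were lower by less. FIT2, FIT3 and CCC2 stood above their 0 min level until 60 min. From 75 min they stood below it, CCC2 up to 120 min, FIT2 up to 150 min and FIT3 up to 210 min. FRE6 was higher in the last window than in the first, though not called against 0 min, and AFT1 was called in no comparison. A call needed a log2 difference of 1 or more together with a Benjamini-Hochberg adjusted p under 0.05 in limma's moderated test. The test was fitted to the 4742 genes that were listed at 0 min and in 4 or more samples of every window. That filter passed 8 of the 10 genes and left out FRE1 and ARN1. No iron uptake gene was called for 15 to 90 min against 0 min, where 0.148% of all genes were, and 1 (FTR1) had an unadjusted p under 0.05. None was called for 105 to 180 against 15 to 90 min (0.0% of all genes; none of the 8 at an unadjusted p under 0.05). None was called for 195 to 270 against 105 to 180 min (8.31% of all genes; 1 of the 8 at an unadjusted p under 0.05), nor for 285 to 360 against 195 to 270 min (0.0% of all genes; 2 of the 8). With voom weights in place of equal weights these 4 counts were also 0, as was that for the last window against 0 min.

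From the first to the last window 1 of the 8, FRE6, rose past both thresholds, beside 12.9% of all genes called higher. None was called for 285 to 360 min against 0 min, where 24.1% of all genes were, and none of the 8 had an unadjusted p under 0.05. Along the 24 no-phosphate samples 4 of the 8 changed (FRE6, FIT2, ARN2 and FIT3), tested as a smooth curve of time (natural cubic spline with 4 degrees of freedom, limma's moderated F-test, adjusted p under 0.05 and a fitted range of at least 1 log2 unit), beside 39.7% of all genes. The median log2 difference of all 4742 genes was 0.36 for the last against the first window and 0.47 for the last window against 0 min. Over the 8 genes these medians were 0.11 and −0.20. A difference called relative below has the median of all genes subtracted.

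**Figure D2:**
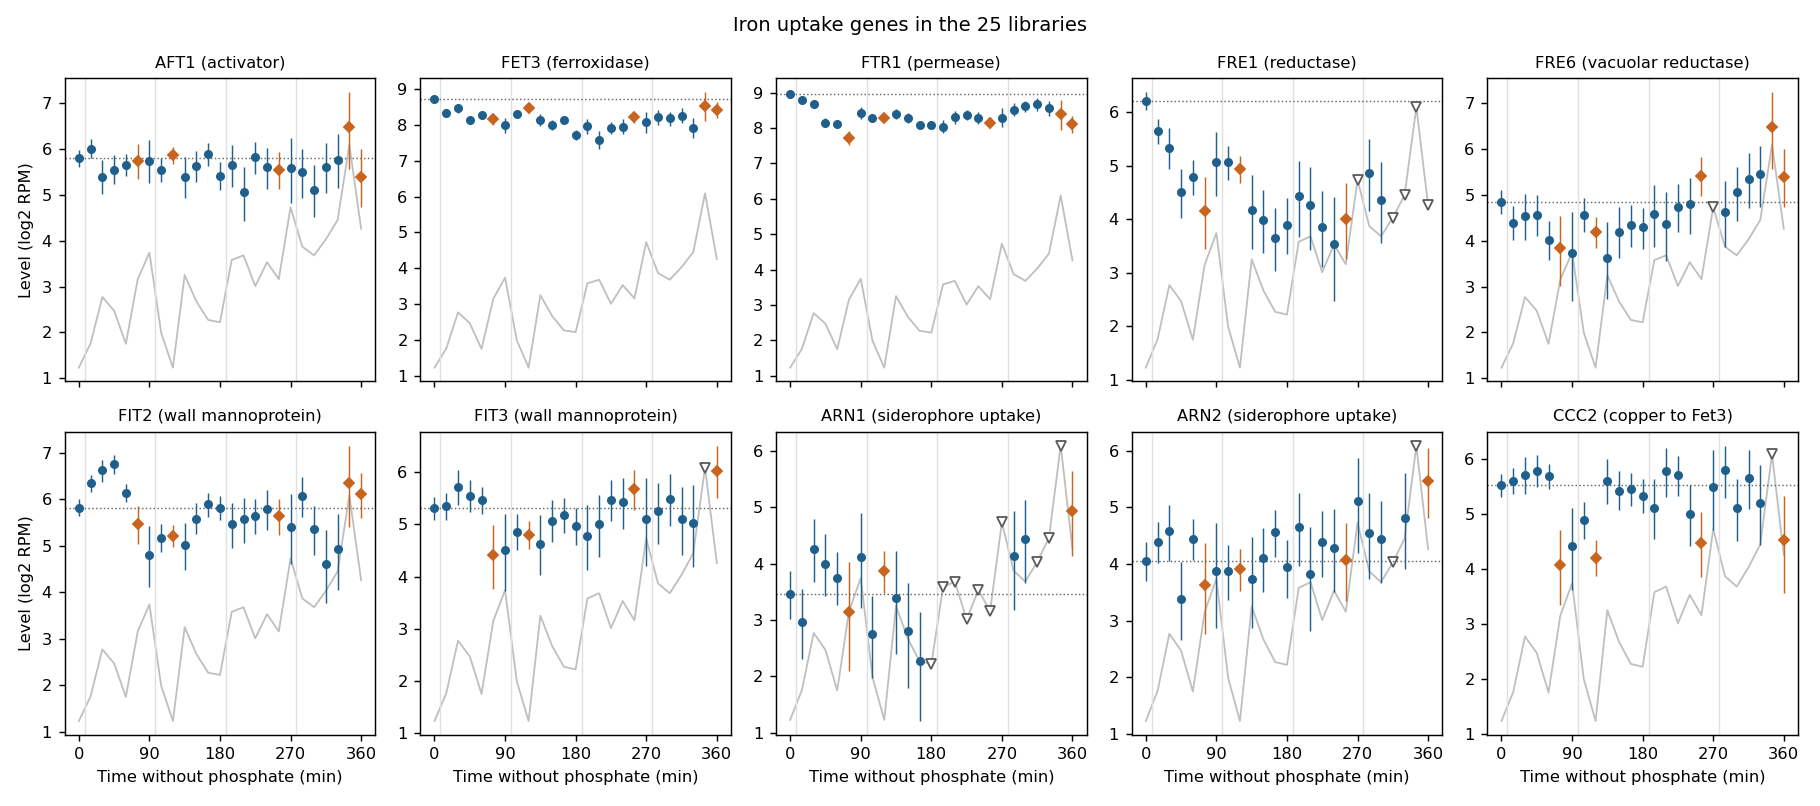
Level of each gene (log2 RPM) against time without phosphate (min), with the 95% counting interval of each library; orange diamonds are the 5 libraries of low ADA2, the grey line is the lowest level that each library can list, open triangles are missing values, the dotted line is the 0 min level and the vertical lines separate the windows. FRE1 lies under its 0 min level of 6.21 wherever it has a value, FRE6 reaches 4.63 to 6.47 in the last window, and FET3 and FTR1 lie under the dotted line in all 24 later libraries.

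AFT1 (YGL071W, chromosome VII, 372012 to 374084, plus strand in R64) encodes the activator of the group, and the means of its transcript in the 4 windows were 5.68, 5.62, 5.54 and 5.64. It was at 5.80 log2 RPM at 0 min (238 reads). Its lowest, median and highest levels were 5.40, 5.70 and 6.01 in the first window, 5.39, 5.59 and 5.89 in the second, and 5.06, 5.59 and 5.82 in the third. In the last window they were 5.11, 5.56 and 6.47, the highest value resting on 13 reads at 345 min. The windows overlapped one another, and 19 of the 24 later libraries lay below the 0 min level and 5 above it. The difference between the last and the first window was −0.04 ± 0.18 (SE; limma adjusted p = 0.869) and the fitted range along the course 0.38 (limma adjusted p = 0.700). Because most genes stood higher late, its relative difference was −0.40, and with each library centred on its median gene the difference was −0.44 (limma adjusted p = 0.0402), and with quantile normalization −0.65 (limma adjusted p = 0.00201), both short of the threshold of 1. In RNA from a whole culture, fewer cells with a transcript and less of it per cell cannot be told apart, here and for the genes that follow.

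FET3 (YMR058W, chromosome XIII, 388822 to 390732, plus strand), the ferroxidase of the uptake complex, was at 8.72 log2 RPM at 0 min (1803 reads), and all 24 later libraries lay below that. Its lowest, median and highest levels were 8.0, 8.21 and 8.46 in the first window and 7.72, 8.14 and 8.46 in the second. They were 7.58, 7.96 and 8.21 in the third and 7.91, 8.23 and 8.53 in the last. The windows overlapped, with the lowest single value at 210 min. FTR1 (YER145C, chromosome V, 460526 to 461740, minus strand), the permease, was at 8.95 at 0 min (2113 reads) and also lower in all 24. The lowest, median and highest levels of FTR1 were 7.72, 8.28 and 8.78 in the first window, 8.08, 8.27 and 8.39 in the second, 8.04, 8.29 and 8.36 in the third, and 8.11, 8.54 and 8.68 in the last. It approached its 0 min level most closely at 15 min (8.78) and was lowest at 75 min, in a library of low ADA2.

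For 15 to 90 min against 0 min the difference was −0.50 ± 0.26 (SE) for FET3 and −0.64 ± 0.28 for FTR1 (limma adjusted p = 0.920 for both), and neither passed the test. For 285 to 360 min against 0 min it was −0.47 for both genes (SE 0.26 and 0.28, limma adjusted p = 0.161 and 0.193), or −0.94 relative to all genes. With each library centred on its median gene it was −0.99 for both (limma adjusted p = 0.0109 for FET3 and 0.0239 for FTR1), just short of the threshold of 1. With quantile normalization it was −0.76 and −0.69 (limma adjusted p = 0.0718 and 0.154). The comparisons of both windows with 0 min rest on the same single library, so an error in it would place all later libraries on 1 side. Between the last and the first window FET3 differed by 0.02 ± 0.14 and FTR1 by 0.17 ± 0.15 (limma adjusted p = 0.896 and 0.363). These signs turned to −0.38 and −0.24 when each library was centred on its median gene (limma adjusted p = 0.0418 and 0.27). Along the course FET3 had a fitted range of 0.49 (limma adjusted p = 0.0432) and FTR1 of 0.44 (limma adjusted p = 0.210), both under the threshold of 1.

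CCC2 (YDR270W, chromosome IV, 1005675 to 1008689, plus strand), the copper pump that supplies Fet3, had a level of 5.53 log2 RPM at 0 min. It was at 5.61, 5.72, 5.79 and 5.70 up to 60 min, and at 4.07 and 4.42 at 75 and 90 min. From 105 to 180 min it was at 4.90, 4.21, 5.60, 5.43, 5.45 and 5.34, so it was back near its starting level from 135 min. From 195 to 270 min it was at 5.11, 5.78, 5.71, 5.01, 4.48 and 5.49, and in the last window at 5.80, 5.11, 5.66 and 5.21 up to 330 min, missing at 345 min and 4.53 at 360 min. The low values fell in the libraries of low ADA2: the 4 of these with a value held 4.07 to 4.53, against 4.42 to 5.80 (median 5.51) in the other 20, and only the library at 90 min among the 20 reached down into that range. Whether the level of CCC2 follows what sets these libraries apart was not tested. The difference between the last and the first window was 0.04 ± 0.32 (limma adjusted p = 0.920) and the fitted range 1.15 (limma adjusted p = 0.117), and neither passed. Without the 5 libraries the difference was 0.00, and for 15 to 90 min against 0 min it was −0.08 in place of −0.31.

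FRE1 (YLR214W, chromosome XII, 568567 to 570627, plus strand), the main surface reductase of ferric and cupric ions, had the largest early difference of the 10 from its starting level. It was at 6.21 log2 RPM at 0 min, from 316 reads with a 95% Poisson interval of 6.04 to 6.37. It was at 5.64, 5.33, 4.50, 4.79, 4.15 and 5.06 from 15 to 90 min, with all 6 libraries below that interval. From 105 to 180 min it was at 5.06, 4.93, 4.18, 3.99, 3.65 and 3.90, and from 195 to 255 min at 4.43, 4.26, 3.86, 3.53 and 4.01, on 10 to 18 reads. After that it was listed at 285 min (4.87, 20 reads) and 300 min (4.36, 16 reads) and was missing at 270, 315, 330, 345 and 360 min. The lowest level that those 5 libraries can list was 4.73, 4.03, 4.45, 6.09 and 4.26, all under the 0 min level, and at 345 min alone this limit lay inside the 0 min interval. All 19 later libraries with a value lay below 0 min, and the means of the first 3 windows were 4.91 ± 0.55 (SD, n = 6), 4.28 ± 0.58 (n = 6) and 4.02 ± 0.35 (n = 5).

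FRE1 was absent from the main test because it had 2 values in the last window. With the filter applied per comparison, a choice made after the data had been seen, the difference for 15 to 90 min against 0 min was −1.30 ± 0.50 (SE), a level 0.407 of the starting one. Its unadjusted p was 0.0168 and its limma adjusted p 0.934, so it was not called; 0.0191% of 5246 genes were called lower there. For 105 to 180 against 15 to 90 min the difference was −0.63 ± 0.27 (limma adjusted p = 0.914). With no filter FRE1 was called lower for 285 to 360 min against 0 min, at −1.60 ± 0.56 (limma adjusted p = 0.0376, on 2 values), beside 3.65% of 5207 genes called lower. With missing values set to the lowest level of their library the difference was −1.53 ± 0.60 (limma adjusted p = 0.0482). Along the course its fitted range with no filter was 1.94 (limma adjusted p = 0.0075), beside 40.4% of genes called, on 19 values of which 2 lie after 270 min. The curve is read at all 24 times, also where FRE1 has no value. With missing values set to the lowest level of their library the fitted range was 1.31 (limma adjusted p = 0.0268), beside 2810 of 5728 genes called. Poisson intervals hold counting error alone, as reads copied by PCR do not stand for separate molecules.

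FRE6 (YLL051C, chromosome XII, 37333 to 39471, minus strand), the reductase of the vacuole membrane, rose late in the course. It was at 4.85 log2 RPM at 0 min (123 reads) and at 4.39, 4.54, 4.57, 4.01, 3.83 and 3.74 from 15 to 90 min. It was at 4.57, 4.19, 3.63, 4.20, 4.34 and 4.29 from 105 to 180 min, and at 4.58, 4.36, 4.74, 4.79 and 5.42 from 195 to 255 min, being missing at 270 min. In the last window it was at 4.63, 5.06, 5.35, 5.45, 6.47 and 5.40. All 6 libraries of the last window lay above all 6 of the first, while the 0 min level fell inside the range of the last window. The rise from the first to the last window was 2.32-fold (log2 1.21 ± 0.24 SE, relative 0.85, limma adjusted p = 2.10e-04). Neither step between neighbouring late windows passed by itself (0.57 ± 0.25 and 0.62 ± 0.25, limma adjusted p = 0.0772 and 0.317), and against 0 min the last window differed by 0.55 ± 0.45 (limma adjusted p = 0.353). Along the course the fitted range was 1.85 (limma adjusted p = 1.29e-05).

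The late values of FRE6 rest on 13 to 26 reads per library, and the highest, 6.47 at 345 min, on 13 reads with a 95% Poisson interval of 5.56 to 7.24, in a library whose lowest listed level is 6.09. Without that library the rise was 1.00 and just under the threshold. It was 0.93 without the 3 libraries under 0.5 M reads, 0.89 on the log2(RPM + 10) scale, 0.87 without the 5 libraries of low ADA2 and 0.81 with each library centred on its median gene, each below the threshold of 1 with limma adjusted p of 0.00728 or less. It was 0.54 with quantile normalization (limma adjusted p = 0.0475). The low ADA2 libraries held 3.83 to 6.47 and the other 19 held 3.63 to 5.45.

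FIT2 (YOR382W, chromosome XV, 1059531 to 1059992, plus strand) and FIT3 (YOR383C, chromosome XV, 1060441 to 1061055, minus strand), which encode mannoproteins that hold siderophores in the wall, were above their 0 min levels until 60 min. FIT2 was at 5.82 log2 RPM at 0 min (242 reads), at 6.35, 6.63, 6.76 and 6.14 from 15 to 60 min, and at 5.47 and 4.81 at 75 and 90 min. It was at 5.17, 5.21 and 5.02 from 105 to 135 min and at 5.59, 5.90 and 5.82 from 150 to 180 min. From 195 to 270 min it kept to 5.41 to 5.79, and in the last window it ranged from 4.61 to 6.36 on 12 to 46 reads. All 4 libraries up to 60 min lay above the 0 min level. All from 75 to 150 min lay below it, those at 75 and 120 min being of low ADA2. This pattern crosses the window borders: the first window, at 6.03 ± 0.75 (SD), differed from 0 min by 0.20 ± 0.55 (SE; limma adjusted p = 0.965) and the second differed from it by −0.57 ± 0.29 (limma adjusted p = 0.989), and neither was called. The last window differed from the first by −0.45 ± 0.29 (limma adjusted p = 0.206), and by −0.90 (limma adjusted p = 0.0293) without the 5 libraries of low ADA2. Along the course FIT2 changed by a fitted range of 1.71 (limma adjusted p = 0.00608).

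FIT3 was at 5.31 log2 RPM at 0 min (170 reads), at 5.35, 5.72, 5.55 and 5.46 from 15 to 60 min, and at 4.41 and 4.51 at 75 and 90 min. It was at 4.86, 4.80 and 4.63 from 105 to 135 min, at 4.96 to 5.17 from 150 to 180 min, and at 4.78 to 5.67 from 195 to 270 min. In the last window it was at 5.25, 5.49, 5.10 and 5.03 up to 330 min, missing at 345 min and 6.03 at 360 min. As for FIT2, the 4 libraries up to 60 min lay above the 0 min level, though by less. Those from 75 to 210 min lay below it. Up to 60 min the 95% Poisson intervals of FIT3 all overlapped that at 0 min (5.09 to 5.53). Its fitted range along the course was 1.01 (limma adjusted p = 0.0129), at the threshold of 1, and 0.87 without the 5 libraries of low ADA2. No window contrast of FIT3 passed; the last window differed from the first by 0.21 ± 0.23 (limma adjusted p = 0.464). Across 24 libraries the levels of FIT2 and FIT3 had a Pearson r of 0.65, as a description of libraries that share depth and time.

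ARN2 (YHL047C, chromosome VIII, 8351 to 10213, minus strand), a transporter of the siderophore triacetylfusarinine C, was at 4.05 log2 RPM at 0 min (71 reads). Levels of ARN2 had a lowest, median and highest value of 3.39, 4.14 and 4.58 in the first window, 3.74, 3.93 and 4.56 in the second, and 3.82, 4.34 and 5.11 in the third. In the last window it was at 4.55, 4.44, 4.82 and 5.46 at 285, 300, 330 and 360 min, on 13 to 23 reads, and missing at 315 and 345 min. The windows overlapped. These 4 libraries list nothing under 3.68 to 4.45, and at 315 min ARN2 was below 4.03, under all 4 listed values, so the mean of the last window is taken over the values high enough to be listed. The last window was higher than the first by 0.77 ± 0.26 (limma adjusted p = 0.0176), which is under the threshold of 1, and by 0.47 (limma adjusted p = 0.176) without the libraries of low ADA2. Along the course the fitted range was 1.54 (limma adjusted p = 0.00327), or 0.89 without those libraries, which ended the call.

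ARN1 (YHL040C, chromosome VIII, 19088 to 20971, minus strand), a transporter of ferrichrome, was the least abundant of the 10. It was at 3.46 log2 RPM at 0 min (47 reads, 95% Poisson interval 3.01 to 3.87) and at 2.96, 4.26, 4.0, 3.75, 3.15 and 4.12 from 15 to 90 min, on both sides of that level. It was at 2.75, 3.86, 3.39, 2.81 and 2.27 from 105 to 165 min and was missing in all 7 libraries from 180 to 270 min. At 180 min the lowest level that could be listed was 2.22, so ARN1 lay below its 0 min interval there. Its values at 15, 105, 150 and 165 min (the last at 2.27, on 10 reads) also lay below that interval. Their own 95% Poisson intervals all reached into it, at 165 min with 1.21 to 3.15. At 225 min ARN1 lay under 3.01, the lower end of the 0 min interval. In the other libraries from 195 to 270 min the lowest level that could be listed was 3.16 to 4.73, within or above that interval. A lower ARN1 could not be told there from one inside the interval. ARN1 was listed again at 285, 300 and 360 min (4.13, 4.44 and 4.94, on 12 to 17 reads), in libraries that list nothing under 3.68. With the filter applied per comparison the difference was 0.25 ± 0.52 for 15 to 90 min against 0 min and −0.69 ± 0.29 for the next step (limma adjusted p = 0.963 and 0.925). With missing values set to the lowest level of their library ARN1 was called along the course (fitted range 2.39, limma adjusted p = 4.70e-04), where 10 of the 24 values are those limits, from 2.22 to 6.09.

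**Figure D3:**
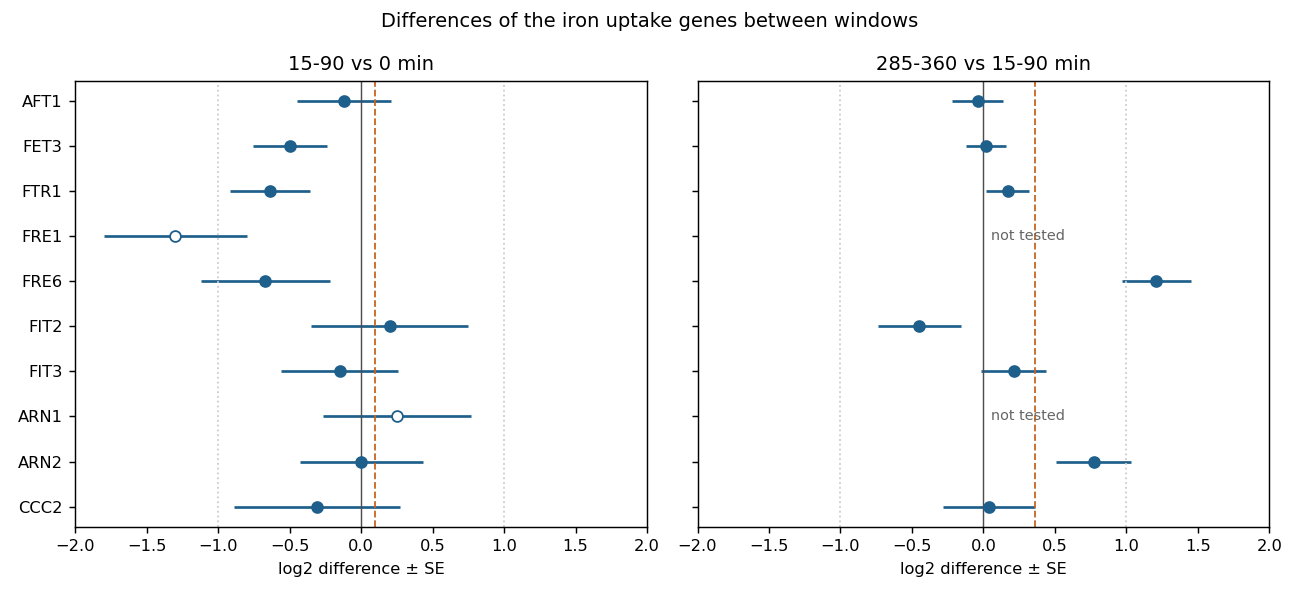
Log2 difference with its SE for each gene, for 15 to 90 min against 0 min (left) and 285 to 360 against 15 to 90 min (right); filled points are from the test over 4742 genes, open points from the filter applied per comparison, the dashed line is the median of all genes and the dotted lines mark a difference of 1. FRE1 (−1.30) is farthest to the left in the early comparison, and FRE6 (1.21) is the gene beyond a dotted line in the late one.

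The levels of the 10 genes were compared with one another and with other genes across the libraries, as a description of points that share depth and time. FRE1 had a Pearson r of 0.71 with FET3 and 0.68 with FTR1 over 20 libraries, while FET3 and FTR1 had 0.37 over 25. FRE6 had 0.62 with FIT3 over 23 libraries and 0.57 with ARN2 over 22, and −0.01 with FRE1 over 20. AFT1 had values from −0.18 to 0.41 with the 8 genes other than ARN1, and −0.58 with ARN1 over 15. This search was limited to genes valued in all 25 libraries, 2954 beside the gene itself, so of the iron uptake genes it could name only AFT1, FET3, FTR1 and FIT2. Within it, the levels most like those of FET3 were YOR342C (0.81), ARB1 (0.78) and DPH5 (0.76). For FTR1 these were URA2 (0.69), RRP14 (0.67) and TMA16 (0.66), for FIT2 YDR433W (0.72), NPL3 (0.72) and SAM3 (0.69), and for AFT1 NIC96 (0.69), MOT3 (0.66) and MNN11 (0.65).

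Other targets of Aft1 and its relative Aft2 were counted in the same way. Of 21 listed, 12 could be tested, and the untested ones include the reductase genes FRE2 (17 values), FRE3 (12), FRE4 (9) and FRE5 (none) and the wall protein gene FIT1 (9). None of the 12 was called in the last against the first window (12.9% of all genes called higher), where their median difference was 0.27 against 0.36 for all genes. Along the course 4 of the 12 changed, near the 39.7% of all genes. SIT1, the ferrioxamine transporter, had a mean level of 7.69 at 0 min and of 7.49, 6.62, 6.97 and 7.06 in the 4 windows (fitted range 1.33, limma adjusted p = 1.27e-04). ENB1, the enterobactin transporter, had a fitted range of 1.42, ISU1, a scaffold of iron-sulfur clusters, 1.35, and ATX1, the copper chaperone of Ccc2, 1.14. ISU1 was also higher in the last window than at 0 min, by 1.18 ± 0.44 (limma adjusted p = 0.0431), as the 1 call among the 12 where 24.1% of all genes were called. Among 7 genes that sense iron or control Aft1, 5 were tested and none was called in any comparison; their median was −0.01 for the last against the first window.

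Of 9 tested copper genes 1 rose between the first and the last window, near the 12.9% of all genes. This was the metallothionein gene CRS5 (1.46 ± 0.23, limma adjusted p = 1.65e-05), and the median of the list was 0.15. MAC1, the copper-sensing activator whose site stands before FRE1, was higher in the last window than at 0 min by 1.22 ± 0.30 (limma adjusted p = 0.00387; 24.1% of all genes were called there), with means of 4.50 at 0 min and 5.72 in the last window. CTR1, the copper transporter, had 18 values (3.62 to 5.23) and was not tested. FET4, the low-affinity iron transporter, was at 4.46 at 0 min and at means of 3.43, 3.53, 3.86 and 4.72 in the 4 windows, and its rise from the first to the last was 1.29 ± 0.29 (limma adjusted p = 0.00131). It was the 1 gene called among 5 of low-affinity uptake and vacuolar storage, whose median was 0.50.

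Of 24 tested genes of iron-containing enzymes, 9 rose and 1 fell from the first to the last window, with a median of 0.81 against 0.36 for all genes. Of all 4742 genes 610 were called higher and 161 lower there, and a difference between this list and others was not tested. The largest were CTT1, cytosolic catalase (2.79 ± 0.46), ERG25, a sterol oxidase (1.80 ± 0.18), RNR4, a ribonucleotide reductase subunit (1.67 ± 0.16), and OLE1, the fatty acid desaturase (1.66 ± 0.20), with limma adjusted p of 2.85e-05 or less. BIO2, the biotin synthase with iron-sulfur clusters, fell by 1.00 ± 0.24 (limma adjusted p = 0.00118). Along the course 16 of the 24 changed, where 39.7% of all genes did. Of 16 genes of iron-sulfur cluster assembly 1 rose, the co-chaperone gene JAC1 (1.05 ± 0.23, limma adjusted p = 6.41e-04), and the median was 0.29. Of 9 genes of heme synthesis and breakdown none was called between these windows (median 0.20). Against 0 min 2 of the 9 were called higher in the last window, near the 24.1% of all genes called there. These were COX15 and COX10, which make heme A (1.03 ± 0.39 and 1.02 ± 0.36, limma adjusted p = 0.0443 and 0.0328).

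**Figure D4:**
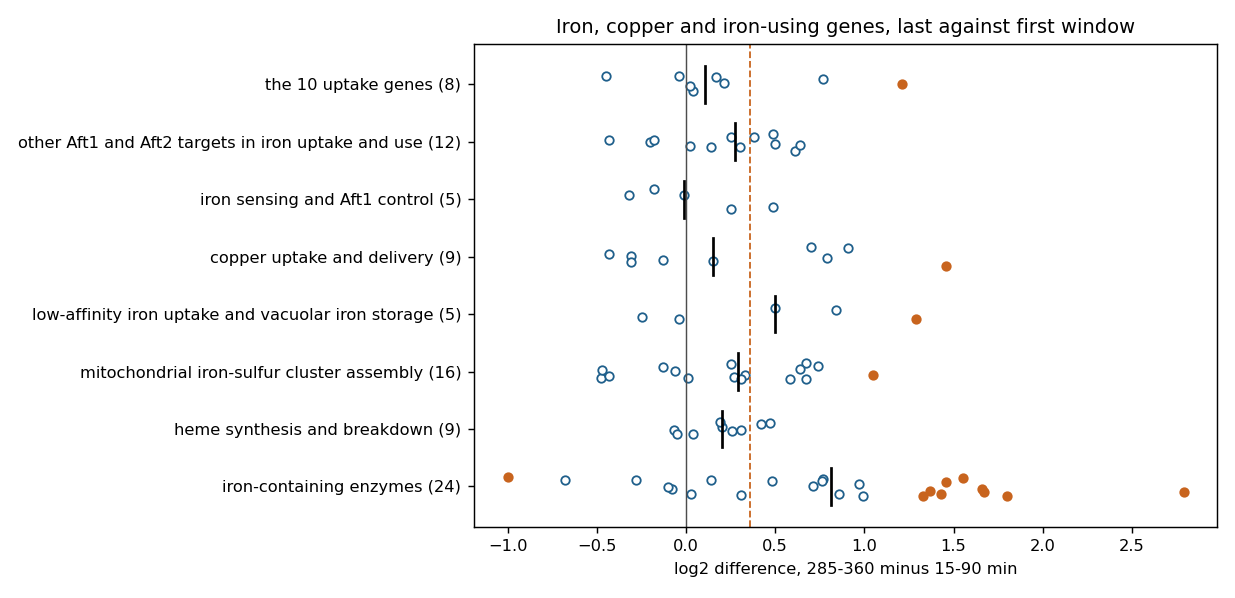
Log2 difference of 285 to 360 against 15 to 90 min for the tested genes of each list (number in brackets); filled orange points are called, black bars are list medians and the dashed line is the median of all genes, 0.36. The median of the uptake genes (0.11) lies left of the dashed line and that of iron-containing enzymes (0.81) right of it.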

How the data were processed

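Per the submitters' processing notes, Bowtie was used with genome build R64; how reads were counted, with which annotation and whether by strand is not given in the sources used here. Values as the authors deposited them are log2 and, raised to the power of 2, sum to 1000000 per library, so they are log2 RPM. Low values are whole multiples of 1 read (92.1 to 95.3% of all values within 0.02 reads), and a missing value stands for fewer than 10 reads. The rows without a name (51) and those sharing one (2) were left out of 6701. None of the 10 genes overlaps another annotated gene.

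A model of 5 group means (0 min and 4 windows) was fitted to the 25 libraries with limma's moderated statistics (limma 3.58.1, R 4.3.3) over 4742 genes. A spline was fitted to the 24 no-phosphate libraries. Both fits were checked against limma's own on genes valued in all 25 libraries, and only the model of group means was tested on simulated data. The lone library at 0 min was taken to vary as the rest do. The members and gene lists were chosen with earlier results of these data known. Named beyond the members are called genes of each list, at most 4 per comparison, and the 3 most correlated genes; CTR1, and the list members without a test, are named in addition. Alternatives covered scaling, weights, filters, missing values, pseudocounts (1 and 10 RPM), thinned or blocked time points, serial correlation and leaving out libraries. Coordinates and sequences are from RefSeq's R64 annotation and genome, counted from 1.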

Additional observations from a re-analysis of the deposited data

Results flagged for a closer look

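AFT1 at 210 min, at 5.06 log2 RPM, stood apart within the window from 195 to 270 min, where the other 5 libraries held 5.54 to 5.82; the gap was 0.629 of the window's range. It was the 1 sample flagged among 37 gene and window groups tested, and chance flags about 1 in 20 such groups. The value rests on 26 reads, with a 95% Poisson interval of 4.44 to 5.61.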

How the results depend on the processing

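No paired analysis was possible, as each time point has a single library and the labels give no replicate numbers. The count of iron uptake genes called was 0 under all 39 alternatives for 15 to 90 min against 0 min and for each step between neighbouring windows. For the last against the first window, the 1 call (FRE6) became 0 with centred libraries, with genes valued in all 25 libraries (4 of the 10, not FRE6), with log2(RPM + 10), without libraries under 0.5 M reads and without the 5 of low ADA2, and 2 with no threshold on the difference; leaving out 1 library gave 0 to 1, the 0 without 345 min. Under quantile normalization the 1 call was FIT2 (−1.10), with FRE6 at 0.54. For 285 to 360 min against 0 min it became 1 (FRE1) with no filter, also with missing values at the floor. Along the course the 4 became 2 with centring, 1 with quantile normalization, 1 with genes valued in all 25 libraries, 1 with every second sample, 2 with 8 blocks of 3 samples and 2 without low ADA2, and 3 to 5 with 1 library left out; with no filter they became 5 (FRE1 added), and 6 with missing values at the floor as well (ARN1 added, where those floors rise late). FRE6 kept its call along the course in 38 of 39 alternatives, FIT2 in 39 of 40, ARN2 in 34 of 39 and FIT3 in 21 of 39. Signs turned for differences that had not passed. For 15 to 90 min against 0 min, FIT3 was 0.00 without low ADA2 (−0.26 to 0.00 with 1 library left out), and ARN2, at 0.00, became −0.11 with centring, −0.21 with quantile normalization and −0.25 with every second sample (−0.10 to 0.13). For the last against the first window, AFT1 became 0.10 with every second sample (−0.20 to 0.07 with 1 library left out). Centring and quantile normalization gave −0.38 and −0.22 for FET3, −0.24 and −0.04 for FTR1, −0.16 and −0.26 for FIT3 and −0.32 and −0.43 for CCC2. Without low ADA2 FET3 was −0.10, FIT3 −0.10 and CCC2 0.00; voom weights gave −0.07 for CCC2. With 1 library left out FET3 ranged from −0.03 to 0.09 and CCC2 from −0.18 to 0.23. Scaling to the median gene subtracts a rise shared by most genes; otherwise the cause was not tested. Depth limits FRE1, ARN1, ARN2 and FRE6 most, with 12 to 26 reads behind each value they have in the last window. AFT1 (13 to 31 reads), FIT3 (15 to 35), CCC2 (12 to 38) and FIT2 (12 to 46) also rest on few reads there.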
